A study of Homo sapiens with 24 samples.

Results

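SNRNP200 binding to exonic RNA was compared between the cytoplasmic fraction and whole cells of untreated HEK293 cells, an established line from human embryonic kidney. The comparison rests on 8 eCLIP libraries of the 24 in the study. Each fraction had 2 input and 2 immunoprecipitate (IP) libraries. In eCLIP, a protein is crosslinked to RNA and immunoprecipitated, and its reads are set against an input library. The authors listed windows of at most 100 bases that were enriched in both replicates, at a q value under 0.2. Windows of untranslated regions (UTRs), coding sequence, start and stop codons and other exons were taken, so that no window with an intron label entered. The windows taken numbered 4136 in the cytoplasmic list and 92875 in the whole cell list, together 96367 of the 225825 windows in any list of the study.

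None of these samples had a treatment by their characteristics, although a protocol field names arsenic for every sample. No transgene, tag or knockdown is named. The cell line stands for 1 line only, and the labels do not say whether replicates were separate cultures. The p-values below therefore reflect only how far these samples lie apart, which may be technical. The sources used here do not give how the cytoplasm was separated.

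SNRNP200 is an RNA helicase in the U5 snRNP. It separates the U4 RNA from the U6 RNA when the spliceosome is activated. It works on pre-mRNA in the nucleus, in a complex with PRPF8 and EFTUD2. In mature mRNA the introns are gone, coding sequence is read by ribosomes, and the 3' UTR carries many of the sites that set the stability and translation of the message. A gene with a single exon gives an mRNA without splicing.

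The labelled fractions differed in the share of intron windows, a class that marks the nucleus. Intron windows made up 45 of all 4182 cytoplasmic windows (1.08%) and 89175 of 182066 whole cell windows (49.0%). Windows in small RNA genes numbered 0 in the cytoplasmic and 69 in the whole cell list. Of 8 nuclear-retained long noncoding RNAs, 3 had an exonic window in either list. MALAT1 had 2 exonic windows and FTX had 5 in whole cells, both without one in the cytoplasm, while TUG1 had 3 in each list. The cytoplasmic list held 4136 exonic windows against 92875, so a lack of windows there for so few can follow from list length alone. The mitochondrial rRNAs, MT-RNR1 and MT-RNR2, do not mark the nucleus. They had 4 windows with 42167 IP reads in whole cells and none in the cytoplasm. The lists hold no library totals, so sequencing depth is unknown. Exonic windows held 185148 IP reads in the cytoplasmic list and 4693517 in the whole cell list, summed over replicates. The typical window was similar, with a median of 30 and 31 IP reads, 3 and 5 input reads, and a gap between replicates of 0.75 and 0.77 on the log2 scale. The assay reads bulk material, so fewer cells with an RNA and less RNA per cell cannot be told apart.

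The cytoplasmic windows lay mainly in 3' UTRs and the whole cell windows mainly in coding sequence. Of the cytoplasmic exonic windows, 2825 of 4136 were in a 3' UTR (68.3%, exact 95% interval 66.9 to 69.7%). In whole cells this was 2902 of 92875 (3.12%, 3.01 to 3.24%). Almost the same number of 3' UTR windows thus stood in lists of very different length, in 1478 genes of the cytoplasmic list and 1523 of the whole cell list. Coding windows made up 849 of the cytoplasmic list (20.5%, 19.3 to 21.8%) and 70435 of the whole cell list (75.8%, 75.6 to 76.1%). The 3' UTR share was 65.2 percentage points higher in the cytoplasm and the coding share differed by -55.3 points. The direction was the same by IP reads, of which 3' UTR windows held 62.5% in the cytoplasm, 59.8 points above their share in whole cells.

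**Figure D1:**
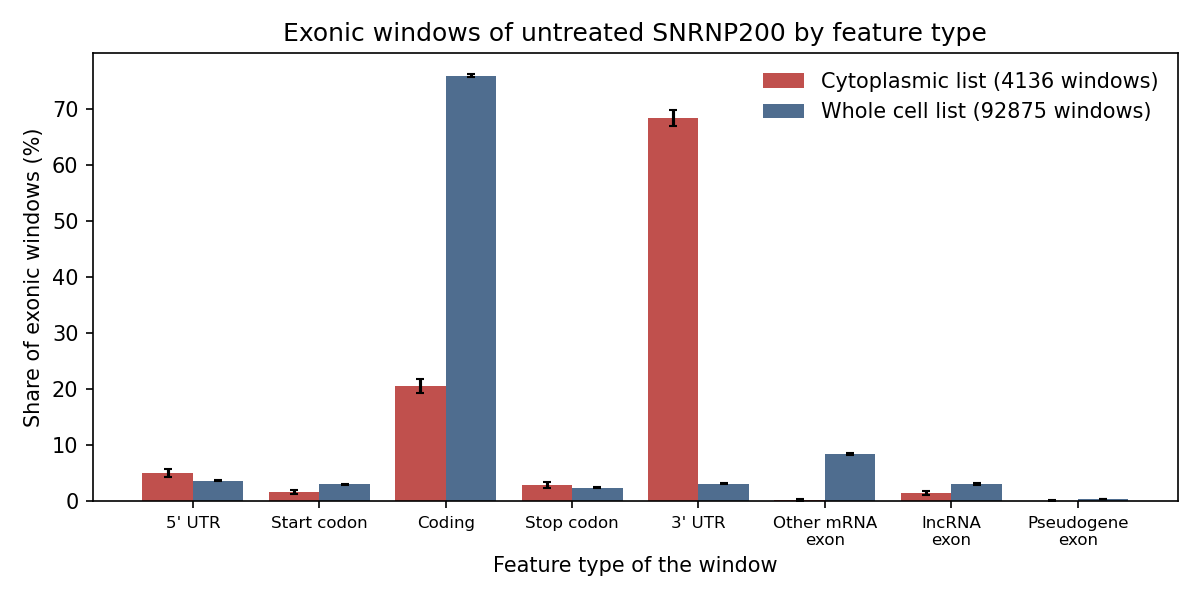
Share of the exonic windows of each list by feature type, in percent, with bars for the cytoplasmic (red) and the whole cell list (blue) and exact 95% intervals. The 3' UTR bar is 68.3% in the cytoplasm and 3.12% in whole cells, and the coding bars are in the opposite order.

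The other classes were smaller. The 5' UTR held 207 cytoplasmic windows (5.0%) and 3391 whole cell windows (3.65%), and by IP reads 9.86% and 4.83%. Windows at start codons made up 1.60% and 3.01%, and those at stop codons 2.90% and 2.43%. Exons of mRNA without a coding or UTR label held 9 cytoplasmic windows (0.218%) and 7755 whole cell windows (8.35%). By IP reads these were 0.214% and 11.8%. In PRPF8 such whole cell windows filled chr17:1659549-1659840, between coding windows that end at 1659548 and start at 1659841. This class may thus hold sequence that is intron in other transcripts of a gene. Exons of long noncoding RNAs made up 1.40% and 3.08%. Small RNA windows, absent from the cytoplasmic list, held 6.57% of exonic IP reads in whole cells.

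The base composition of the windows went with these classes. Cytoplasmic 3' UTR windows had a median GC fraction of 0.398, and those of whole cells 0.454. For coding windows the order was the opposite, with 0.545 in the cytoplasm and 0.465 in whole cells. Over all exonic windows the medians were close, at 0.465 and 0.469. Enrichment also differed by class within each list. The median log2 enrichment of 3' UTR windows was 3.09 in the cytoplasm, above the 2.89 of its coding windows. In whole cells 3' UTR windows had 2.93, below the 3.30 of coding windows. These intervals and medians describe 1 list for each fraction, and neighbouring windows share reads.

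The shift to the 3' UTR was also present within genes. Of 392 genes with at least 3 exonic windows in each list, 363 (92.6%) had a higher 3' UTR share of windows in the cytoplasm, 14 a lower and 15 the same. The median gene had 79.3% of its cytoplasmic windows and 0% of its whole cell windows in the 3' UTR. Its coding share was 14.3% and 84.9%. Here, and for single genes and gene lists below, coding windows include those at start and stop codons. In 105 genes every cytoplasmic window and no whole cell window was in the 3' UTR.

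**Figure D2:**
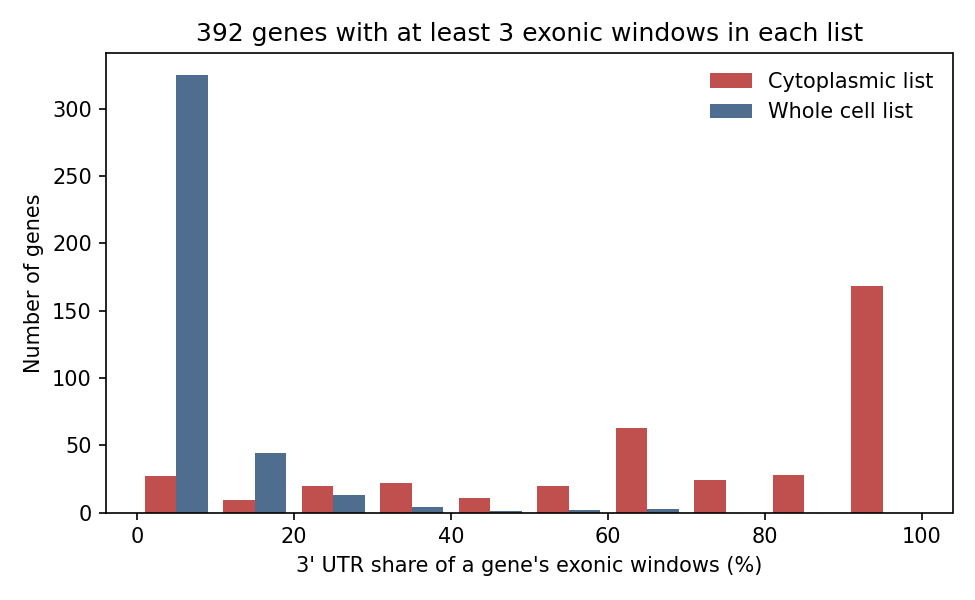
Number of genes by the 3' UTR share of their exonic windows, in bins of percent, for the 392 genes with at least 3 windows in each list. Whole cell shares (blue) pile up at the lowest bin and cytoplasmic shares (red) at the highest, where 167 genes had all their cytoplasmic windows in the 3' UTR.

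Single genes show the size of this shift. PTBP1, a repressor of exon inclusion, had 7 cytoplasmic windows, all in the 3' UTR, and 47 whole cell windows, none of them there. Of the 47, 19 were coding and 26 were in exons without a coding or UTR label. MKI67, the proliferation antigen Ki-67, had 7 cytoplasmic windows in the 3' UTR, while 74 of its 76 whole cell windows were coding. HNRNPA2B1, an hnRNP core protein, had 6 cytoplasmic windows, all in the 3' UTR, against 9 of 30 in whole cells. LARP1, which binds mRNAs of the translation machinery, had 11 of 15 cytoplasmic and 1 of 32 whole cell windows in the 3' UTR. ACTG1, cytoplasmic gamma actin, had 6 of 7 and 0 of 10, and ACTB, its beta counterpart, had 5 of 6 and 1 of 10. Some genes kept their cytoplasmic windows in coding sequence. EIF4G1, the scaffold of the cap-binding complex, had 12 coding windows of 14 in the cytoplasm, and TUBB, a beta tubulin, had 7 of 8.

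Exonic windows were also placed against the splice site windows that were listed in whole cells. The reference took every whole cell window with a splice site label. Those directly adjacent to a splice site numbered 64983, and 3 in the cytoplasmic list, so the whole cell list served as the reference for both. The shares are therefore a description that favours whole cells by construction, and they measure no distance to splice sites. An exonic window that touched such a window was counted. This held for 37018 of 92875 whole cell exonic windows (39.9%, 39.5 to 40.2%) and for 202 of 4136 cytoplasmic ones (4.88%, 4.25 to 5.59%). The share differed by feature type. Among coding windows only, the shares were 47.6% (47.3 to 48.0%) in whole cells and 19.9% (17.3 to 22.8%) in the cytoplasm. In 5' UTRs they were 24.2% and 5.80%, and in 3' UTRs 6.37% and 0.142%. Among windows with at least 20 IP and 10 input reads, the shares over all types were 6.98% and 1.04%.

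Within the cytoplasmic coding windows, those also listed in whole cells differed from the others. Of the 380 coding windows in both lists, 135 touched a listed splice site window (35.5%, 30.7 to 40.6%). Of the 469 listed in the cytoplasm without a whole cell counterpart, 34 did (7.25%, 5.07 to 9.98%). The whole cell list also chose the first of these sets.

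Cytoplasmic windows often touched each other. Of the cytoplasmic exonic windows, 37.2% belonged to a run of touching windows, as did 49.4% in whole cells. The longest cytoplasmic run was 8 windows in the 3' UTR of ZIC2, a zinc finger transcription factor, at chr13:99985879-99986666 (hg38). The longest coding run was 7 windows in RBM15B, at chr3:51392291-51392982, and the longest in a 5' UTR was 4 windows in JUN, at chr1:58783560-58783950. In whole cells the longest run was 22 windows in RHOT2, and the longest coding run was 16 windows in IRS4.

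Most genes of the cytoplasmic list were also in the whole cell list. Of 8729 genes with an exonic window in either list, 1789 (20.5%) had one in the cytoplasm and 8588 (98.4%) in whole cells. Both lists held 1648 genes, which is 18.9% of all, 92.1% of the cytoplasmic genes and 19.2% of the whole cell genes. Only the cytoplasmic list held 141 genes (1.62%), and only the whole cell list held 6940 (79.5%). A gene in both lists had a median of 1 cytoplasmic and 13 whole cell windows. When the whole cell list was reduced to its 4136 exonic windows with the lowest q values, 653 genes were in both and 1136 in the cytoplasmic list only. With q under 0.05 in both lists, 227 genes were in both and 32 in the cytoplasmic list only.

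The 141 genes listed only in the cytoplasm were short. Their median span in RefSeq (GRCh38.p14) was 5858 bases for the 136 with a match. It was 32969 bases for genes in both lists and 32948 for genes of the whole cell list only. Spans under 10000 bases made up 62.5%, 18.4% and 18.3% of these classes. An intron window in any of the 6 lists of the study was present for 50 of the 141 genes (35.5%), for 94.8% of genes in both lists and for 89.2% of the genes in whole cells only. Of their 345 cytoplasmic windows, 164 were in a 3' UTR. One window was the only one for 78 of these genes, and 18 had at least 5.

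**Figure D3:**
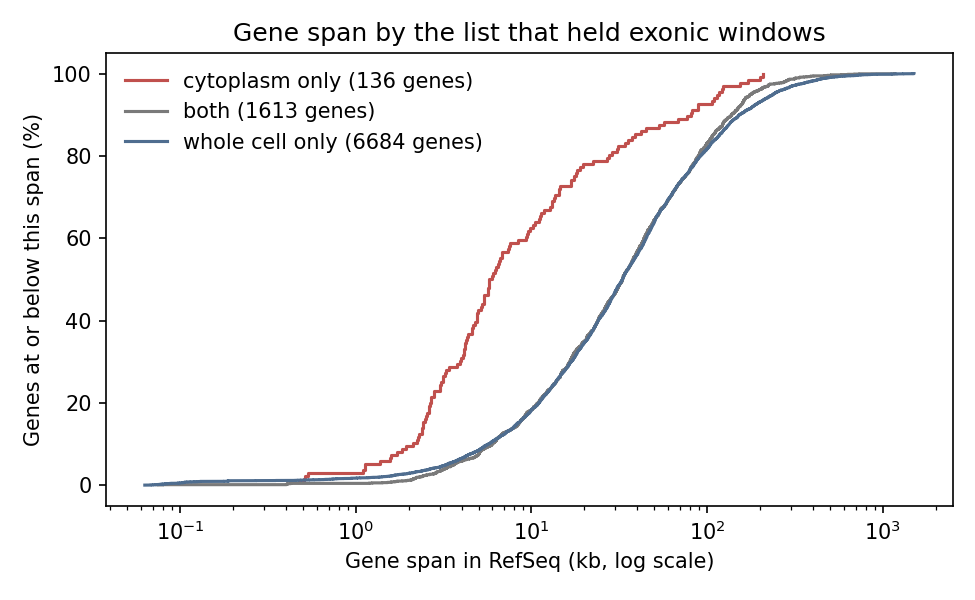
Cumulative share of genes, in percent, by their span in RefSeq in kb on a log scale, for genes with exonic windows in the cytoplasmic list only (red, 136 genes), in both (grey, 1613) and in the whole cell list only (blue, 6684). The red curve lies to the left, and the other two nearly coincide, with medians of 32969 and 32948 bases.

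The 10 genes with the most windows among these 141 were NORAD, KCTD12, ZNF503, RBM15B, SOX4, EXOSC6, RNF26, SMCR8, ZBED4 and GAS1. FEN1 had 6 windows like GAS1, which was taken for its higher number of IP reads. NORAD (ENSG00000260032.2), a cytoplasmic long noncoding RNA that binds PUMILIO proteins, had 28 windows over 2750 of the 5343 bases of its gene. They held 1919 IP and 279 input reads, which is 6.88 IP reads per input read (exact 95% interval 6.06 to 7.83). Its windows had a log2 enrichment between 1.47 and 4.37 with a median of 2.71. The highest, at chr20:36045814-36045911, had replicate values of 2.90 and 5.84 with 61 IP and 4 input reads.

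KCTD12 (ENSG00000178695.6), an auxiliary subunit of GABA-B receptors, had 15 windows, 10 of them in the 3' UTR, with 965 IP and 88 input reads. ZNF503, a zinc finger repressor, had 13 windows with 1911 IP and 258 input reads, 5 in the 3' UTR and 7 coding. It is spliced, and the whole cell list held 6 intron windows of it but no exonic one. RBM15B, a subunit of the complex that methylates adenosines in mRNA, had 12 windows with 423 IP and 41 input reads, 10 of them coding. SOX4, a transcription factor, had 9 windows with 581 IP and 81 input reads, 7 in the 3' UTR. EXOSC6, a subunit of the RNA exosome, had 9 windows with 529 IP and 100 input reads, also 7 in the 3' UTR. These genes differ in which part of the mRNA carried the windows, and by the rule that chose them none of the 10 had an exonic window in untreated whole cells.

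The remaining 4 had 6 or 7 windows each. RNF26, a ubiquitin ligase of the endoplasmic reticulum, had 7, of which 5 were coding, and SMCR8, a partner of C9orf72, had 7, of which 4 were in the 3' UTR. ZBED4, a zinc finger protein, had 7, of which 6 were coding. GAS1, a co-receptor for hedgehog ligands, had 6 windows with 342 IP and 32 input reads.

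The arsenic lists of the study, from other libraries of the same protein and fractions, allow a look at the same genes in a second pair of lists. There 387 of 7874 genes had exonic windows in the cytoplasm only. Of the 141 genes listed only in the untreated cytoplasm, 58 were again cytoplasm only (41.1%). This was so for 79 of the 1648 genes in both untreated lists (4.79%) and for 159 of the 6940 genes of untreated whole cells only (2.29%). With 500 µM arsenic, NORAD had 20 cytoplasmic windows, ZNF503 20, KCTD12 12, SOX4 11, RBM15B 8, GAS1 8, EXOSC6 4 and RNF26 2, and all 8 had 0 in whole cells. SMCR8 had 0 in the cytoplasm and 1 in whole cells, and ZBED4 had none in either list. The whole cell arsenic list held 56569 exonic windows and the cytoplasmic one 6734. The cytoplasmic arsenic windows had a median of 14 input reads and a GC fraction of 0.531. In the untreated cytoplasm these medians were 3 and 0.465, so the second pair of lists is not a like repeat.

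The 10 genes with the most whole cell windows and no cytoplasmic one had 70 to 136 windows each. MDN1, an ATPase of ribosome assembly, had 136 windows, all coding. UBR4 had 108 and BIRC6 107, both large ubiquitin ligases, and HERC2, another, had 79. DST, a linker of cytoskeletal filaments, had 89 and DYNC2H1, the dynein heavy chain of cilia, had 82. DDX11, a DNA helicase, and POLE, the catalytic subunit of DNA polymerase epsilon, had 79 each. ANKRD36 had 73 and THOC2, a subunit of the THO complex of mRNA export, had 70. ANKRD36 and DDX11 have near-identical copies in the genome, so their windows are uncertain. The absence of these genes from the cytoplasmic list says that no window passed there, not that binding was 0.

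The 8 genes with the most cytoplasmic windows among genes in both lists were SPEN, IRS4, PRPF8, PRKDC, SON, FOXC1, SLIT2 and WDR6. NSD1 and ARID1A tied with the last pair at 17 windows and had fewer IP reads, by which ties were settled. SPEN, a transcriptional corepressor with a very long coding exon, had 41 cytoplasmic windows, 28 coding and 9 in the 3' UTR, against 69 in whole cells. IRS4, an insulin receptor substrate, had 31 cytoplasmic windows, 26 of them coding, and 39 whole cell windows with 24 coding and 15 in the 3' UTR. IRS4 was thus one of the 14 genes above whose 3' UTR share was lower in the cytoplasm.

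PRPF8, the U5 protein that holds SNRNP200, had 31 cytoplasmic windows, 29 coding with 1 at the start codon and 1 at the stop codon among them, with 1295 IP and 161 input reads. In whole cells it had 91 windows, 79 coding, with 8071 IP and 1283 input reads. The median log2 enrichment over its windows was 2.82 in the cytoplasmic and 3.11 in the whole cell list. PRKDC, the catalytic subunit of DNA-dependent protein kinase, had 23 and 126 windows, and SON, a splicing cofactor of nuclear speckles, had 21 and 49.

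FOXC1, a forkhead transcription factor, stood apart from these with 18 cytoplasmic windows against 1 in whole cells. The 18 held 2880 IP and 380 input reads, and 8 were in the 3' UTR. SLIT2, a secreted guidance protein, had 17 cytoplasmic windows, 10 of them in the 5' UTR, and 53 in whole cells. WDR6, a WD-repeat protein involved in tRNA methylation, had 17 cytoplasmic windows, all coding, and 22 in whole cells.

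Gene lists differed in how many of their members had a cytoplasmic window, beside 20.5% of all genes with an exonic window. Each percentage below is over the members with an exonic window in either list. In a list of single-exon genes it was 26 of 31 (83.9%), of which 16 were listed in the cytoplasm only (51.6%, beside 1.62% of all genes). These 16 count among the 31 only through their cytoplasmic windows, and the list has 49 members in all. The windows of the list numbered 162 in the cytoplasm and 33 in whole cells, with 13440 and 1075 IP reads. This list holds genes named in earlier results of these data. Without those 8, 18 of 23 members had a cytoplasmic window (78.3%), below the 81.6% of SR and hnRNP proteins, and 10 were listed in the cytoplasm only (43.5%). In the arsenic lists, 8 of the 16 and 2 of the 10 were again in the cytoplasm only, beside 58 of all 141 such genes.

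**Figure D4:**
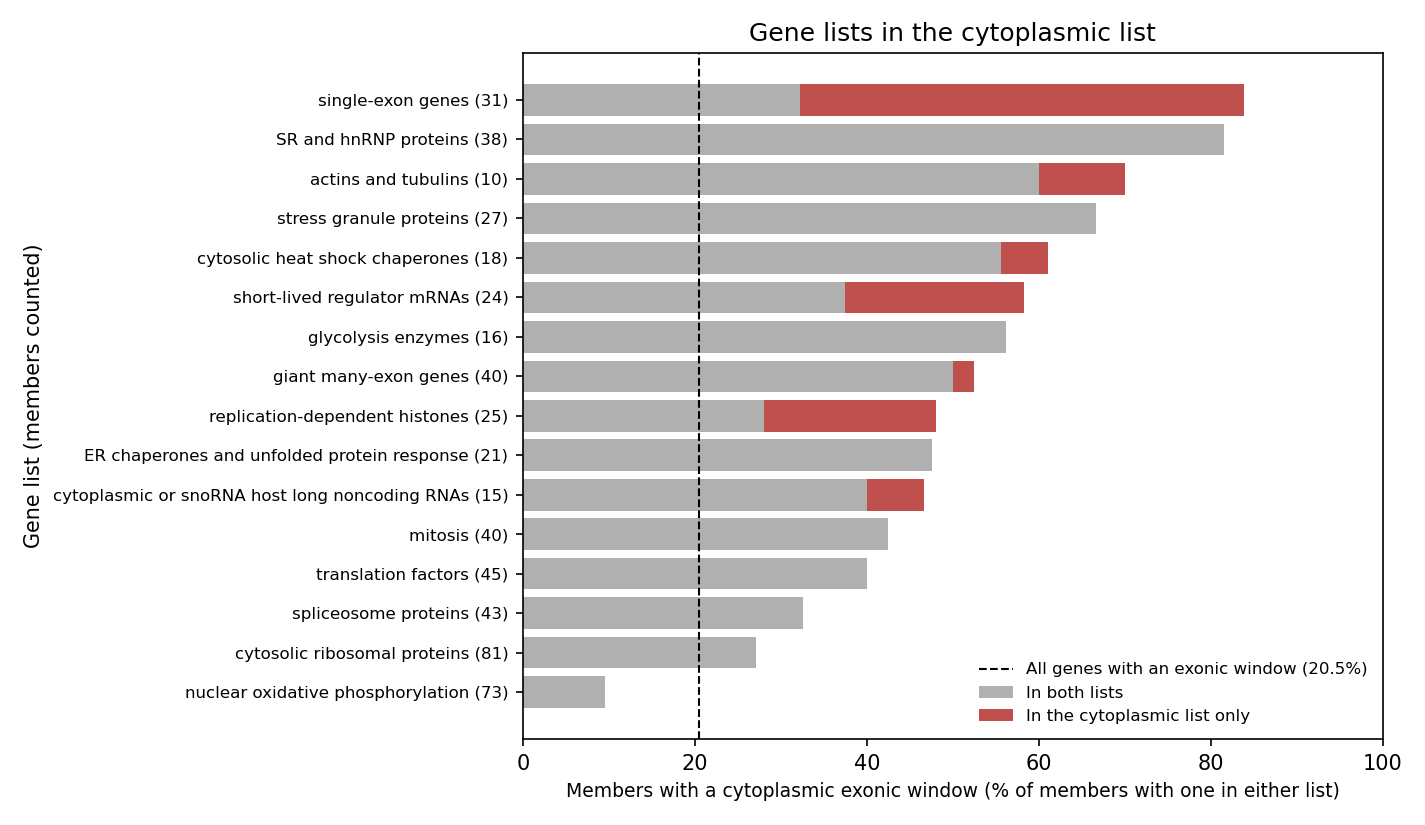
Percent of the members of each gene list that had a cytoplasmic exonic window, split into members in both lists (grey) and in the cytoplasmic list only (red), with the number of members counted in parentheses. The dashed line is the 20.5% of all genes; single-exon genes reach 83.9% and nuclear oxidative phosphorylation genes 9.59%.

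Among single-exon genes were JUN, with 16 windows against 5, and other genes of transcription factors. FOXD1 had 4 windows against 0, SOX12 3 against 0, CEBPA and CEBPB 2 each against 0, and JUNB and JUND 1 each against 0. RHOB, a small GTPase, had 5 against 0, and ATXN7L3B had 12 against 1. PURB, CHML, RNF113A, SPRYD4 and ZNF830 were in the whole cell list only, with 1 to 3 windows each. The whole cell list also held 1 intron window each of SPRYD4 and KLHL11. Not every member of the list is thus certain to have a single exon. HSPA1A had 4 windows against 0 and HSPA1B, another gene for inducible HSP70, had 8 against 1. With arsenic, neither HSPA1A nor HSPA1B had a cytoplasmic window. They are near-identical copies, so the split of reads between them is uncertain.

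For SR and hnRNP proteins and for stress granule proteins, as over the whole cytoplasmic list, most cytoplasmic windows were in 3' UTRs. SR and hnRNP proteins had 31 of 38 members in the cytoplasmic list (81.6%), and 92 of their 118 cytoplasmic windows were in a 3' UTR (78.0%, beside 68.3% of all cytoplasmic exonic windows), against 120 of 933 in whole cells (12.9%). Another 401 of the 933 were coding. HNRNPA1 went the other way, with 2 of 6 cytoplasmic and 26 of 48 whole cell windows in the 3' UTR. HNRNPA0, an hnRNP gene without introns, had 10 windows in the cytoplasm and 1 in whole cells. Stress granule proteins had 18 of 27 (66.7%), with 47 of 72 cytoplasmic and 19 of 831 whole cell windows in a 3' UTR. PRRC2A, a large stress granule protein, differed from this with 5 of 6 cytoplasmic and 37 of 40 whole cell windows in coding sequence. All 38 and all 27 members counted were also in the whole cell list.

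Lists of the translation machinery and the spliceosome were closer to the share over all genes. Cytosolic ribosomal protein genes had 22 of 81 members in the cytoplasmic list (27.2%) and all 81 in whole cells. Their 27 cytoplasmic windows were mostly coding (18), with 1 in a 3' UTR. In whole cells they had 1224 windows, of which 292 were coding and 119 in a 3' UTR, so most had neither label. RPL4 of the large subunit had 1 cytoplasmic window with 682 IP and 69 input reads, and 24 windows in whole cells. Of these 24, 19 were in exons without a coding or UTR label. RPS20 of the small subunit had 1 with 327 and 123 reads, and 5 in whole cells. Translation factors had 18 of 45 (40.0%), with 28 of 59 cytoplasmic windows in a 3' UTR. PABPC1, the poly(A)-binding protein, had 5 cytoplasmic windows with 1049 IP and 215 input reads, and 20 in whole cells. Spliceosome proteins had 14 of 43 (32.6%), with 66 cytoplasmic windows, of which PRPF8 alone gave 31. Of the 66, 24 were in a 3' UTR and 41 were coding. U2AF2, which binds the polypyrimidine tract, had 2 cytoplasmic windows, both in the 3' UTR, against 2 of 21 in whole cells. SNRPB, a core protein of snRNPs, had 3 of 5 and 2 of 10 there.

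Nuclear genes of oxidative phosphorylation had the lowest share of any list with at least 10 members counted, with 7 of 73 (9.59%). These 7 had 8 cytoplasmic windows, 2 of them in COX7C, a cytochrome c oxidase subunit. ATP5F1A and ATP5F1B, subunits of ATP synthase, had 1 window each, with 70 and 27 IP reads. All 73 had windows in whole cells, 449 in total. Glycolysis genes, another set of metabolic enzymes, had 9 of 16 (56.3%), and 13 of their 15 cytoplasmic windows were in a 3' UTR against 1 of 194 in whole cells. LDHA, lactate dehydrogenase A, had 2 cytoplasmic windows, both in the 3' UTR, and ENO1, an enolase, had 1, also there. Neither had a 3' UTR window among the 6 and 21 of whole cells.

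Actins and tubulins had 7 of 10 members in the cytoplasmic list, with TUBA1A in the cytoplasm only. Cytosolic heat shock chaperones had 11 of 18 (61.1%). HSP90AB1, the constitutive HSP90, had 1 cytoplasmic window, in the 3' UTR, with 591 IP and 108 input reads. In whole cells it had 2 windows with 61 IP reads. Endoplasmic reticulum chaperones and genes of the unfolded protein response had 10 of 21 (47.6%), with 14 of 20 cytoplasmic windows in a 3' UTR. CANX, calnexin, had 4 of 4 and PDIA4, a disulfide isomerase, 3 of 3 there, against 4 of 17 and 0 of 4 in whole cells. Short-lived regulators had 14 of 24 (58.3%), among them MCL1, a survival protein, with 13 windows, and MDM2, the ligase of p53, with 9. In MCL1 11 of the 13 and in MDM2 all 9 cytoplasmic windows were in the 3' UTR, while none of their 11 and 20 whole cell windows were.

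Replication-dependent histone genes had 12 of 25 members in the cytoplasm (48.0%), 5 of them in the cytoplasm only, and none of their 13 cytoplasmic windows was in a 3' UTR. H4C3 had 258 IP reads in 2 cytoplasmic windows, H2BC12 218 in 1 and H2AC19 208 in 1. Histone genes are copies of each other, so single members are uncertain. Long noncoding RNAs of the cytoplasm or with snoRNAs in their introns had 7 of 15 (46.7%), and 28 of their 38 cytoplasmic windows were those of NORAD. SNHG1 had 3 cytoplasmic and 27 whole cell windows, and SNHG29 had 2 and 12. Mitosis genes had 17 of 40 (42.5%), with 29 of 35 cytoplasmic and 20 of 1208 whole cell windows in a 3' UTR. BUB3, a spindle checkpoint protein, had 4 of 5 and 0 of 16 there, and CENPF, a kinetochore protein, had 3 of 4 and 0 of 67. Giant genes with many exons had 21 of 40 (52.5%), and 78 of their 125 cytoplasmic windows were coding. ANKRD11, a chromatin regulator, had 8 coding windows of 10 in the cytoplasm and 32 of 34 in whole cells.

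The strongest cytoplasmic windows with at least 10 input reads were all in 3' UTRs, in JUN, FAM171A1, SCAF4, ETNK1, HOXA5 and HNRNPL, and none of the 6 was listed in whole cells. Of all cytoplasmic exonic windows 68.3% were in 3' UTRs, and 63.0% of those with at least 20 IP and 10 input reads. Only 4.71% of cytoplasmic 3' UTR windows were listed in whole cells, so the lack of all 6 there is not particular to strong windows. The JUN window, at chr1:58781482-58781580, had replicate values of 2.94 and 5.24 on the log2 scale, with 159 IP and 13 input reads. The SCAF4 window, in the gene of a regulator of transcription termination, had 3.63 and 4.21 with 181 IP and 14 input reads. The HNRNPL window had 3.01 and 4.54 with 196 IP and 18 input reads. The replicates of FAM171A1 were far apart, at 2.02 and 5.86. Those of ETNK1, an ethanolamine kinase, were at 1.99 and 5.76.

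JUN, a subunit of the AP-1 transcription factor, had cytoplasmic windows in both UTRs and none in the coding sequence after the start codon window. Of its 16 cytoplasmic windows, 8 were in the 3' UTR, 7 in the 5' UTR and 1 at the start codon. Their IP reads ranged from 13 to 538 with a median of 180, and their log2 enrichment from 1.52 to 4.09. Its 5 whole cell windows, 2 of them in the 3' UTR, had 31 to 83 IP reads and a log2 enrichment of 1.44 to 2.83. SPIN4, an X-linked histone reader chosen here after its values were seen, held the window with the most cytoplasmic IP reads. At chrX:63350445-63350535 it had 846 IP reads and 1 input read in the cytoplasm, with replicate values of 8.18 and 9.68, and 545 and 3 in whole cells, with 6.18 and 7.69. The same coding window was listed for CAPRIN with 3202 IP and 2 input reads, so it was not particular to the SNRNP200 libraries.

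Few windows themselves were shared. Both lists held 644 exonic windows in 389 genes, which is 15.6% of the cytoplasmic windows (14.5 to 16.7%) and 0.693% of the whole cell windows. The share depended on the feature type. Of the cytoplasmic coding windows 44.8% (41.4 to 48.2%) were also listed in whole cells, and of the cytoplasmic 3' UTR windows 4.71% (3.96 to 5.55%). It was 27.1% for 5' UTR, 39.4% for start codon and 34.2% for stop codon windows. Shared windows had a median of 30 IP and 4 input reads in the cytoplasm and 65 and 16 in whole cells.

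Of the shared windows, 270 were also listed for CAPRIN (41.9%), a stress granule protein mapped in the same study. This was so for 1075 of the 3492 other cytoplasmic windows (30.8%) and for 4330 of all whole cell exonic windows (4.66%). The protocols name 1 antibody number for all samples, and the protein was taken from the titles. Without the windows listed for CAPRIN or G3BP1, 3' UTRs still made up 67.3% of the 2679 cytoplasmic windows left and 3.04% of the 88161 whole cell windows left. Exonic windows in all 6 lists numbered 16. PRPF8 had 3 of these, and the others were in genes such as HNRNPA1, HNRNPA2B1, EIF5A, EEF1G, PARP1, PRKDC and CTNNB1.

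Enrichment in the shared windows was compared in 1 window for each of the 389 genes, that with the most IP reads, from the 2 replicate values of each fraction. No window passed at an adjusted p of 0.05 (limma, Benjamini-Hochberg; 0% of 389, smallest adjusted p 0.235). At an unadjusted p under 0.05 there were 71, of which 41 were higher and 30 lower in the cytoplasm. The median difference was 0.12 on the log2 scale, with quartiles of -0.60 and 0.82 and a median standard error of 0.58. The replicates of both fractions did not overlap in 106 windows that were higher in the cytoplasm (27.2%) and in 90 that were lower (23.1%). With 2 samples against 2, an exact two-sided permutation test cannot go below 0.333. Replicates that do not overlap give this lowest value, so a share of 0.333 of windows, over both directions, is expected without any difference. A lack of overlap is thus a description and not a call.

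The differences had opposite signs by feature type. In the 98 shared 3' UTR windows the median difference was 0.60, with 78 higher in the cytoplasm and 20 lower. Of these, 43 were higher and 6 lower without overlap of replicates. In the 197 coding windows the median was -0.24, with 76 higher and 121 lower, 33 and 62 of them without overlap. In the 43 windows of 5' UTRs it was 0.39, with 25 higher and 18 lower. The baselines of the lists differ, and this shifts the level of every window. Among exonic windows with at least 10 input reads, the point of no enrichment (log2 of 0) was at 1.01 input reads for each IP read in the cytoplasmic list and at 1.62 in the whole cell list.

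The highest differences included those in NSD1, RBBP6, BPTF, BRPF1, MDC1, LRRC14 and SUPT16H. In the coding window of NSD1, a histone methyltransferase, at chr5:177212097-177212195, the cytoplasmic replicates had a log2 enrichment of 3.92 and 4.92 and the whole cell replicates 1.56 and 1.64. The groups did not overlap, and the difference was 2.82 (SE 0.57, limma adjusted p 0.235). It rests on 19 IP and 0 input reads in the cytoplasm, which allows up to 3 input reads, and on 32 and 18 in whole cells. As the mean of all shared windows of the gene, the difference was 1.04 for NSD1 and 1.40 for BPTF, against 2.37 in the single window of BPTF. The 5' UTR window of RBBP6, a ubiquitin ligase of the mRNA cleavage machinery, differed by 2.82 as well, with 4.08 and 4.87 against 1.37 and 1.95. The 3' UTR window of SUPT16H, a subunit of the histone chaperone FACT, differed by 2.06, but its cytoplasmic replicates were wide apart, at 3.02 and 6.03. The windows of NSD1, RBBP6, BRPF1, MDC1 and LRRC14 had 0 input reads in the cytoplasm, and those of BPTF and SUPT16H had 1 and 4.

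**Figure D5:**
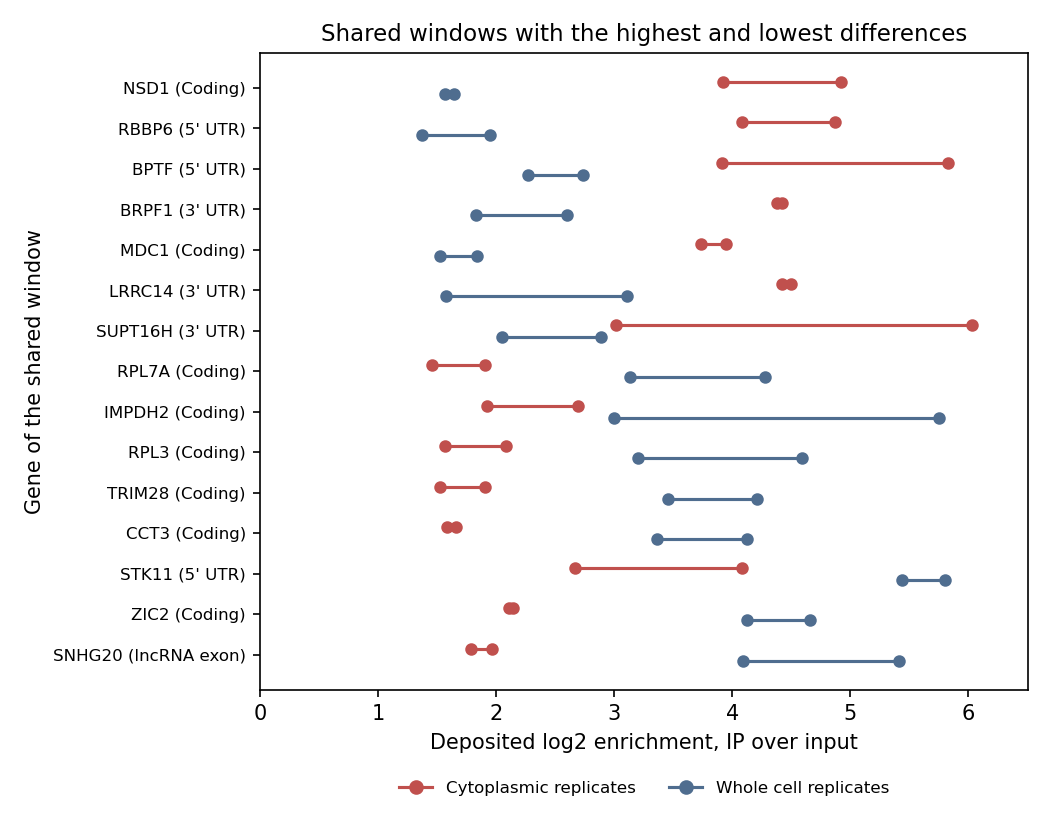
Deposited log2 enrichment of IP over input in 15 shared windows with the highest and lowest differences, with 1 point for each of the 2 replicates and a line between them, cytoplasm in red and whole cells in blue. The replicates of both fractions do not overlap in any of the 15, which were chosen for their difference, and none passed at an adjusted p of 0.05.

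The 8 lowest differences were in SNHG20, ZIC2, STK11, CCT3, TRIM28, RPL3, IMPDH2 and RPL7A. SNHG20, a long noncoding RNA with snoRNAs in its introns, had 1.78 and 1.96 in the cytoplasm and 4.09 and 5.41 in whole cells, at chr17:77089210-77089306. The difference was -2.88 (SE 0.62, limma adjusted p 0.235), with 30 IP and 9 input reads against 552 and 39. The coding window of ZIC2 had 2.11 and 2.14 against 4.13 and 4.66, a difference of -2.26, while the 3' UTR of the same gene carried the longest cytoplasmic run. CCT3, a subunit of the cytosolic chaperonin, had 1.58 and 1.65 against 3.36 and 4.13, a difference of -2.13 that was -1.05 as the mean of the gene's shared windows and -1.39 as the log2 ratio of summed reads. TRIM28, a corepressor, had 1.52 and 1.90 against 3.45 and 4.21. RPL3 and RPL7A, proteins of the large ribosomal subunit, differed by -2.07 and -2.02.

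The same direction was seen over the ribosomal protein list, which itself holds RPL3 and RPL7A. Of its 16 tested shared windows, 15 were lower in the cytoplasm and 1 higher, 10 of the 15 without overlap of replicates, and the median difference was -1.04 beside 0.12 over all 389. None of the 16 was in a 3' UTR, and among coding windows alone the median was -1.08 in the 11 of this list and -0.24 in all 197. The median over genes also depended on read depth, with -0.55 in the 90 windows with at least 20 IP and 10 input reads in both lists. The ribosomal windows were not compared with others of like depth. Translation factors had a median of -0.58 in 10 windows, 8 of them lower. SR and hnRNP proteins had -0.29 in 18 windows, with -0.55 in 13 coding and 0.74 in 5 of the 3' UTR. Giant genes had -0.30 in 11, all coding. Mitosis genes had 0.34 in 5 windows. None of these windows passed the test over all 389.

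Restricting the fit to windows with at least 20 IP and 10 input reads in both lists left 90 windows and changed this picture. There 18 passed at an adjusted p of 0.05 (limma), 3 higher and 15 lower in the cytoplasm, and the median difference was -0.55. All 18 have 1 common standard error of 0.50, so a window's own spread did not enter its test. The 3 higher were a 3' UTR window of SET, an inhibitor of protein phosphatase 2A, with a difference of 1.94, a 5' UTR window of SLIT2 with 1.84 and the start codon window of JUN with 1.51. SET had replicates of 2.21 and 4.98 in the cytoplasm, farther apart than the difference itself, and 1.27 and 2.04 in whole cells. JUN had 2.43 and 3.47 in the cytoplasm and 1.39 and 1.48 in whole cells. The 15 lower windows were coding or at a start codon, in CCT3, TRIM28, RPL3, RPL7A, H2AZ1, TAF15, SRSF9, RPLP0, TPI1, PARP1, RPS16, ATF4, HNRNPA1, EEF1D and XRCC6. Their differences ranged from -2.13 to -1.32, and the smallest adjusted p was 0.00172.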

How the data were processed

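Per the submitters' processing notes, the authors used fastp 0.11.5, STAR 2.7.6 and hg38. The sources used here do not name the window caller. The deposited lists lack a header, and their values showed what each column holds. The deposited counts are raw reads of a window, added over replicates by the authors. As deposited, log2 values are enrichments of IP over input for the lowest and highest replicate and their mean, normalised in each list separately. The authors give the highest and lowest p-value and q-value of the replicates and kept windows with q under 0.2. GC content was deposited as a fraction of each window's bases.

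Windows were matched by position and strand (pandas 2.3.3), and windows of several genes counted for each. Shares have exact 95% intervals (scipy 1.17.1) that cover counting error only. Replicate values of shared windows were tested with limma 3.58.1 under R 4.3.3 in a moderated, unpaired and two-sided fit that was tested on simulated data. There it found 16.3% of planted log2 differences of 1, 61.2% of those of 2 and 85.4% of those of 3, with 3 false calls. Each of these sizes was planted in 48 or 49 of the 389 windows, and a size of 5 in 48 more. So large a share of changed windows makes calls easier, so these rates may not hold for the measured windows. There even the differences of 2.82 in NSD1 and -2.88 in SNHG20 did not pass. Large as well as small differences can thus be missed. RefSeq spans matched 8433 of 8729 symbols. Named genes were those with the most windows (10 in the cytoplasm only, 10 in whole cells only, 8 in both), the 8 highest and 8 lowest differences, the 6 highest enrichments with at least 10 input reads, and, of each list, the 3 members with the most cytoplasmic IP reads. One gene that these rules pick is not reported here. Other genes named were chosen after their values were seen. The groups, the 18 gene lists and these rules were chosen with earlier results of these data known. No window sequence was used here.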

Additional observations from a re-analysis of the deposited data

How the results depend on the processing

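No paired analysis was possible because the replicate values of a window carry no replicate number, and for the same reason leaving out each replicate could not be run. The 3' UTR share stayed higher and the coding share lower in the cytoplasm under every alternative tried. The difference in 3' UTR and coding share was 73.1 and -63.9 points with q under 0.05, 58.5 and -49.8 with at least 20 IP and 10 input reads, 73.6 and -58.2 with 1 window per gene, 71.1 and -71.5 for windows of a single feature type, and 59.8 and -43.4 weighted by IP reads. With the whole cell list reduced to equal length the coding difference was -41.6 points. Leaving out windows listed for CAPRIN or G3BP1, an alternative chosen after seeing the data, gave 64.3 and -55.0 points and 127 genes in the cytoplasm only. Of genes with at least 1 window in each list, 83.5% had a higher 3' UTR share in the cytoplasm.

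Counts of genes depended on list length. Genes in both lists numbered 227 with q under 0.05, 347 with the read minimums, 653 with equal length and 740 with at least 2 windows, and genes in the cytoplasm only numbered 32, 73 and 1136 under the first 3 of these. The share of cytoplasmic genes also in whole cells was 87.6%, 82.6%, 36.5% and 87.9% under the 4. The share of cytoplasmic windows also listed in whole cells was 6.48% with q under 0.05, 18.4% with the read minimums and 0.484% with equal length. Exonic windows touching a listed splice site window made up 1.04% in the cytoplasm and 33.6% in whole cells with q under 0.05, and 1.04% and 6.98% with the read minimums. Within 100 bases of one were 9.33% and 55.4%. The cause of these shifts was not tested.

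The median difference over shared windows was 0.12 as reported, 0.94 with q under 0.05 (9 windows), 0.63 as the log2 ratio of summed reads with a pseudocount of 1, and -0.55 with the read minimums, where 18 windows passed. The q threshold and the read minimums leave fewer windows, and the cause of the change of sign was not tested. The other limma fits made 0 calls. These used all 644 windows (117 at an unadjusted p under 0.05), gene means (51), the median removed (63) and a variance trend (76). The 16 windows with the 8 highest and 8 lowest differences kept their direction in all 48 values under the alternatives, though NSD1 went from 2.82 to 1.04, BPTF from 2.37 to 1.40 and CCT3 from -2.13 to -1.05 with gene means.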
